A study of Homo sapiens with 12 samples.

Results

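The DNA replication origin and fork genes described here were 49 genes, taken by name from 34643 gene symbols in the RNA-Seq table of LNCaP cells, a human prostate carcinoma line that responds to androgen. All 49 were in the table and passed the filter on low counts, as did 15419 genes in all. By role, 11 act in origin licensing, 6 in helicase activation, 9 are subunits of the replicative polymerases and primase, and 9 form the sliding clamp and its loaders. Another 5 act in Okazaki fragment maturation and single-strand binding, 4 in fork protection and 4 as histone chaperones at the fork, and TCF19 is a transcription factor whose expression follows the cell cycle.

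In dividing cells the origin recognition complex, CDC6 and CDT1 load the ring of MCM proteins onto DNA in the G1 phase, and geminin blocks a repeat of this step later in the cycle. MCM10, CDC45 and the GINS complex then turn each ring into a moving helicase, polymerase alpha-primase lays down primers, and the delta and epsilon polymerases copy the strands while held by the PCNA clamp. Most of these genes are transcribed at the passage from G1 to S under E2F factors, and androgen is known to drive that passage in androgen-dependent prostate cancer cells.

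The study asked how silencing of TMEFF2, a transmembrane protein found mainly in brain and prostate, changes the response of LNCaP cells to androgen. Cells carried a lentiviral pLKO.1-puro vector with an shRNA under the U6 promoter, against TMEFF2 (shTMEFF2) or of scrambled sequence (shScramble), and all had been selected in puromycin. About 2.5 weeks after transduction they were kept for 24 h in 10% charcoal-stripped serum, which removes androgen, and then for 24 h with 10 nM dihydrotestosterone (+DHT) or with ethanol (−DHT). The 4 groups, shScramble −DHT, shScramble +DHT, shTMEFF2 −DHT and shTMEFF2 +DHT, had 3 libraries each. The 3 repeats were separate treatments and RNA extractions from 2 transductions. The labels do not say which repeat came from which transduction, nor which TMEFF2 shRNA was used, so the spread within a group is partly that of treatments of the same transduced cells. Libraries held 19450866 to 22612046 estimated counts. Levels are given as TMM-normalized CPM (counts scaled to library size), and comparisons as log2 fold changes ± standard error from edgeR's quasi-likelihood test, with p-values adjusted over the 15419 genes. A gene counted as called when its change reached 1.5-fold and its adjusted p did not exceed 0.05. For the difference between DHT responses the adjusted p alone was used.

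TMEFF2 itself was at 77.8, 73.8 and 103 CPM in shScramble −DHT, 173, 117 and 169 in shScramble +DHT, 68.6, 39.3 and 81.7 in shTMEFF2 −DHT, and 142, 90.1 and 114 in shTMEFF2 +DHT. The ranges of the shTMEFF2 and shScramble lines overlapped at either treatment, and the shTMEFF2 means were the lower ones, at 63.2 ± 21.7 CPM against 85.0 ± 15.9 CPM without DHT and 116 ± 26.0 CPM against 153 ± 31.4 CPM with it (SD, n = 3). By edgeR the difference between the lines did not pass the test without DHT (log2 fold change −0.43 ± 0.25, adjusted p = 0.503) or with it (log2 fold change −0.41 ± 0.25, adjusted p = 0.304). In all 6 pairs of the same replicate number and treatment TMEFF2 was lower in shTMEFF2, at ratios of 0.533 to 0.882. The study reported silencing of the protein by Western blot. It also showed TMEFF2 mRNA levels for the silencing shRNAs and the scramble control, with and without DHT, which are not reproduced here. TMEFF2 rose with DHT in both lines, as log2 fold change 0.85 ± 0.25, adjusted p = 0.0227 in shScramble and log2 fold change 0.87 ± 0.25, adjusted p = 0.0377 in shTMEFF2 by edgeR. Luminal markers were high in every library (HOXB13 346 to 522 CPM), while the basal marker KRT5 was at 0 and the T cell marker CD3E was at 0 in 11 of the 12 libraries. The androgen-induced luminal gene KLK3 (prostate-specific antigen) was at 1900.5 to 1953 CPM in shScramble −DHT, 7219 to 7737 in shScramble +DHT, 255 to 509 in shTMEFF2 −DHT and 1452 to 2474 in shTMEFF2 +DHT. Of 4 fibroblast markers COL1A1 was at 11.9 to 30.4 CPM and lower with DHT in both lines, while COL1A2, DCN and LUM stayed under 1 CPM. Among leukocyte markers PTPRC was at 3.15 to 7.74 CPM, on average lower with DHT, and CD68 at 3.19 to 8.85 CPM. Their part in the results was not tested.

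Promoters were examined because nearly all of these genes moved together. RefSeq windows of 300 bases, 250 before to 50 after the annotated start on GRCh38.p14, were at hand for 41 of the 49 genes. An E2F form (TTTCCCGC, TTTCGCGC, TTTGCCGC or TTTGGCGC, either strand) was in a window of 19 of the 41 genes (46.3%), against 6.27% of the 11010 tested genes with a window. The CCAAT box (CCAAT) was in 65.9% against 43.1%, and the GC box (GGGCGG) in 80.5% against 74.7%. The cell cycle homology region TTTGAA, known from genes of the G2 and M phases, was in ASF1B alone of the 41 (2.44%), against 13.9%. Each share counts a gene once if any of its windows held the letters, and such a match is not a shown binding site.

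Stretches of 60 bases before the start are shown to let the letters be seen in place. CDC6 and CLSPN had the largest responses, and MCM6, CDT1, PCNA and POLA1 show the forms. Capitals mark the E2F forms, read 5′ to 3′ along the gene's own strand, and 2 overlapping forms on opposite strands make 1 longer run in MCM6, whose window holds another such run farther out. The form of CDC6 begins after the start, at position 8, outside the stretch shown. That of CLSPN begins 5 bases before the start and runs past it, so the stretch ends within the form, left in small letters. CHAF1B, called between the lines with DHT, held none of the forms. NASP and CDC45 also held none in their windows. Only the exact letters of the forms were searched. The near variant tttggcggga, in small letters in the stretches of CDC6 and CDT1 and also present in CDC45, was not counted. The form of GINS1 begins after the start, at position 6, outside its stretch. The stretches of NASP, CDC45 and GINS1 overlap annotated exons and are not printed. The stretches lie at chr17:40287819-40287878, plus strand (CDC6), chr1:35769979-35770038, minus strand (CLSPN), chr2:135876498-135876557, minus strand (MCM6), chr16:88803728-88803787, plus strand (CDT1), chr20:5126648-5126707, minus strand (PCNA), chrX:24693755-24693814, plus strand (POLA1) and chr21:36385332-36385391, plus strand (CHAF1B), on GRCh38.p14. None of them overlaps an annotated exon in GENCODE v44.
CDC6: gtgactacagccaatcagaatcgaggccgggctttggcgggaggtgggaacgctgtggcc
CLSPN: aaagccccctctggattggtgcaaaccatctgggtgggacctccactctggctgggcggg
MCM6: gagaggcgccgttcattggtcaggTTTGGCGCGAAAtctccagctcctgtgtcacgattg
CDT1: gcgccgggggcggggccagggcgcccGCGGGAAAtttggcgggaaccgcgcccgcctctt
PCNA: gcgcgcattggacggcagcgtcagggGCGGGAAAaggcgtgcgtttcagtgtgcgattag
POLA1: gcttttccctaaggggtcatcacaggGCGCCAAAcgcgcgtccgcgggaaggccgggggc
CHAF1B: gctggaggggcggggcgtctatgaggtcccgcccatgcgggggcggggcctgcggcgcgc

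**Figure D1:**
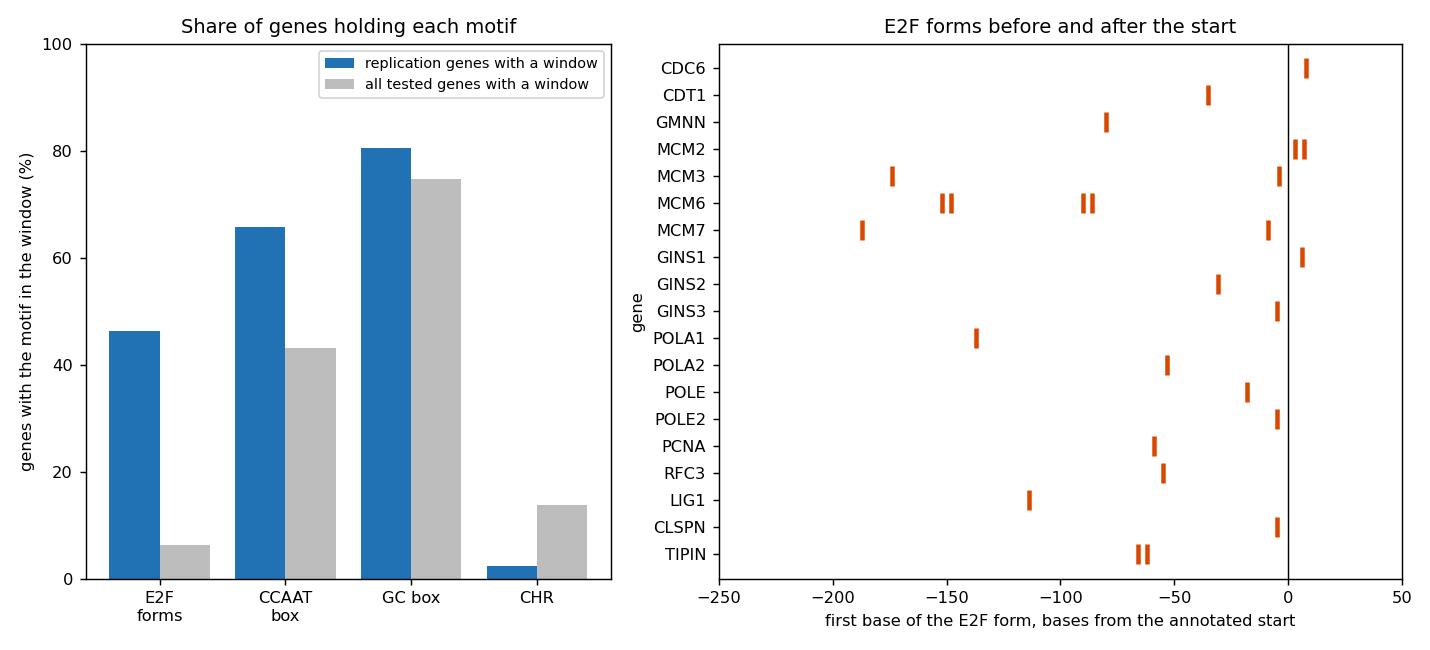
Left, share of genes (%) with each motif in the window from 250 bases before to 50 after the start, for the 41 replication genes with a window (blue) and all 11010 tested genes with a window (grey). Right, distance in bases from the annotated start to the first base of each E2F form, 1 row per gene; 22 of the 26 forms lie before the start, 16 of them within 100 bases.

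Of the 26 E2F forms found, 22 began before the start, the farthest at 187 bases in MCM7. Genes with and without a form had similar median responses to DHT, which were not tested against each other. A gene without a form can hold a near variant, as CDC45 does, so the split is only by exact letters. In shTMEFF2 the median was 0.82 on the log2 scale for the 19 genes with a form and 0.76 for the 22 without, and in shScramble it was 0.45 and 0.49. By the adjusted p 17 of the 19 and 21 of the 22 rose in shTMEFF2, and 11 of the 19 and 19 of the 22 in shScramble.

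Most of the replication genes rose with DHT in both lines, and the largest responses were those of CDC6, which loads the MCM ring, CLSPN (claspin), a fork protection protein, and CDC45, a subunit of the moving helicase. In shScramble 12 of the 49 genes were called higher (24.5%), where 5.45% of all tested genes were. With the adjusted p alone 37 rose, against a background of 14.4%. For 40 genes every +DHT library was above every −DHT library, against 21.3% of all genes. In shTMEFF2 36 were called higher (73.5%), against 3.28% of all genes, and 46 rose by the adjusted p alone, against 7.84%. The groups did not overlap for 47 genes, against 15.6%. No member was called lower in either line. The median log2 fold change of the 49 was 0.47 in shScramble and 0.77 in shTMEFF2, where the medians over all tested genes were −0.01 and −0.02. All 37 genes that rose in shScramble by the adjusted p also rose in shTMEFF2. With 46 of the 49 rising there, most of this overlap was fixed in advance. The comparisons in the 2 lines share no library but come from the same fit. In RNA from a whole culture, more cells in S phase and more RNA per cell cannot be told apart.

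**Figure D2:**
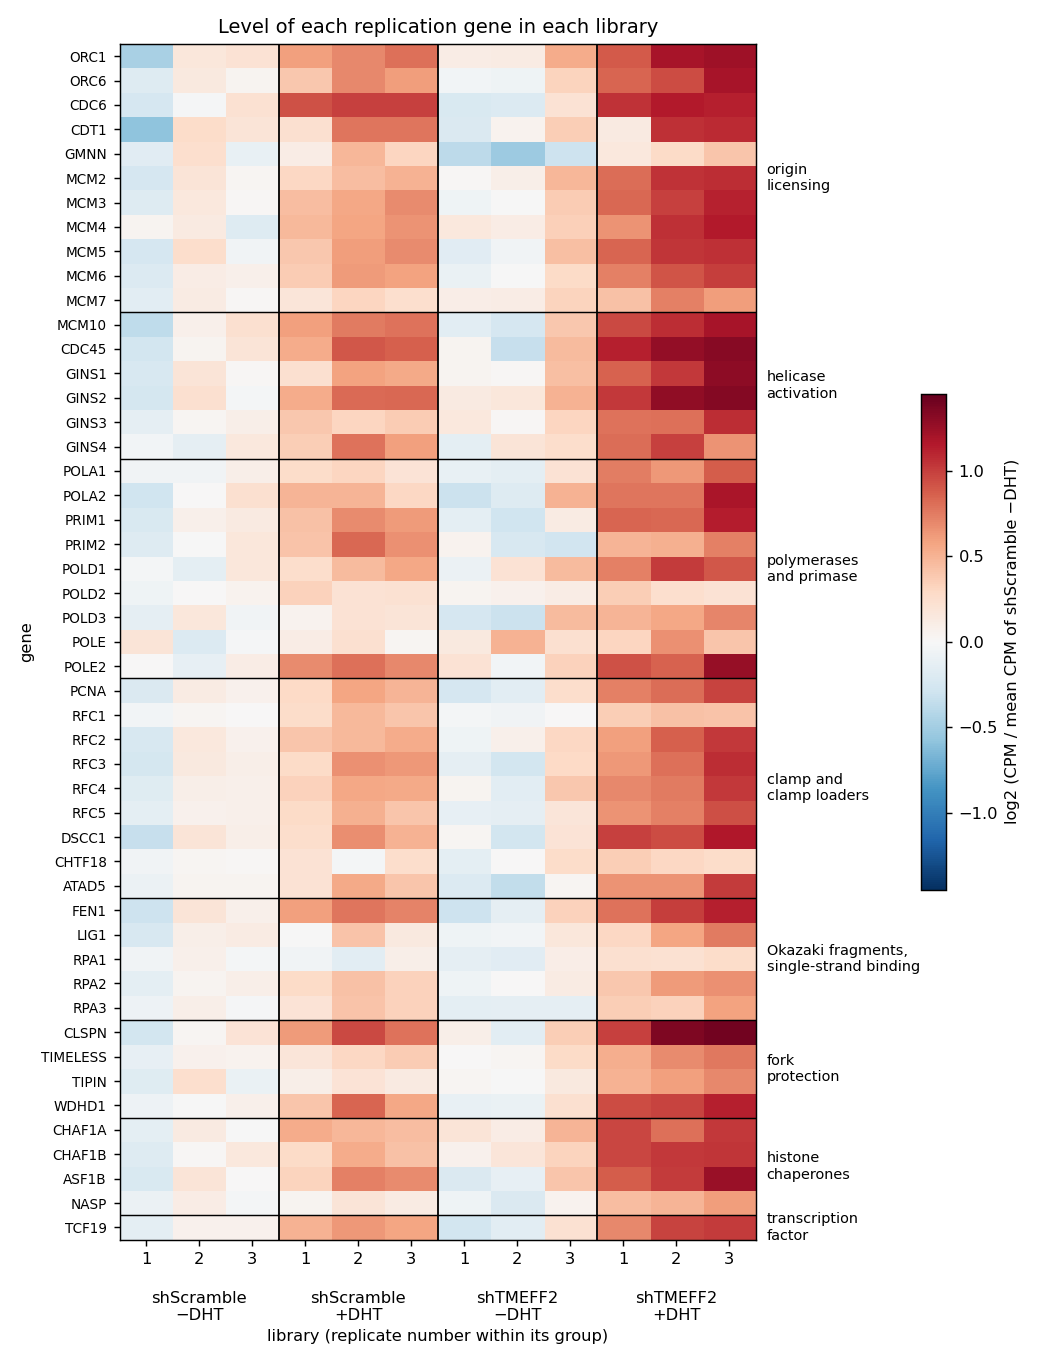
Each row is 1 of the 49 genes, ordered by role, and each column 1 of the 12 libraries; color is the log2 ratio of the gene's CPM to its mean in shScramble −DHT. The columns of shTMEFF2 +DHT are the reddest, and 38 of the 49 genes are higher in all 3 of them than in the other 9 libraries, against 3.16% of all genes tested.

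The call in shScramble depended on single libraries. It fell from 12 to 6 genes without shScramble −DHT replicate 1, and rose to 20 without shScramble −DHT replicate 2 and to 21 without shScramble +DHT replicate 1. Replicate 1 held the lowest level of its group for 43 of the 49 genes in shScramble −DHT and for 41 in shScramble +DHT. In shTMEFF2 the count stayed between 34 and 42. There replicate 3 held the highest level for 46 genes in −DHT and for 41 in +DHT. The same numbers thus ran together across treatments, and within each number the response was present. In shScramble the median log2 ratio of +DHT to −DHT was 0.51, 0.45 and 0.46 in replicates 1, 2 and 3, with 45 genes above 0 in all 3. In shTMEFF2 it was 0.78, 0.91 and 0.72, with all 49 above 0 in each.

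Among the 11 licensing genes 8 rose in shScramble and 10 in shTMEFF2 by the adjusted p, with median log2 fold changes of 0.57 and 0.82. CDC6 (chr17:40287879-40304657, plus strand), the loader that is remade in each G1 phase, was at 41.2, 48.4 and 57.1 CPM in shScramble −DHT, 92.5, 97.1 and 97.5 in shScramble +DHT, 41.9, 42.7 and 56.6 in shTMEFF2 −DHT, and 101, 109 and 107 in shTMEFF2 +DHT. All 6 +DHT libraries lay above all 6 −DHT libraries. The rise was 1.96-fold in shScramble (log2 fold change 0.97 ± 0.12, adjusted p = 9.99e-05, edgeR) and 2.24-fold in shTMEFF2 (log2 fold change 1.16 ± 0.12, adjusted p = 0.000286, edgeR). CDT1, its partner in loading the ring, was at 14.2, 25.4 and 24.1 CPM in shScramble −DHT, 25.0, 36.4 and 36.3 in shScramble +DHT, 18.4, 22.0 and 27.2 in shTMEFF2 −DHT, and 23.2, 44.2 and 44.8 in shTMEFF2 +DHT. Replicate 1 was the lowest of its group in every group, and the treatment groups overlapped in both lines. CDT1 did not pass the edgeR test in shScramble (log2 fold change 0.62 ± 0.27, adjusted p = 0.11) or in shTMEFF2 (log2 fold change 0.73 ± 0.27, adjusted p = 0.0956). With the replicate number as a block it was called in both, with log2 fold changes of 0.64 (adjusted p = 0.00191) and 0.69 (adjusted p = 0.00272).

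The 6 subunits of the MCM ring rose in shTMEFF2 by the adjusted p, and all but MCM7 rose in shScramble. MCM2 was at 74.8, 101 and 90.1 CPM in shScramble −DHT, 109, 121 and 126 in shScramble +DHT, 90.0, 94.3 and 123 in shTMEFF2 −DHT, and 155, 184 and 186 in shTMEFF2 +DHT. Every +DHT library exceeded every −DHT library of its line in shScramble, and the same held in shTMEFF2. The log2 fold change was 0.42 ± 0.13 in shScramble (adjusted p = 0.0325, edgeR) and 0.77 ± 0.13 in shTMEFF2 (adjusted p = 0.0031, edgeR). In shScramble MCM2 did not pass without shScramble −DHT replicate 1 (adjusted p = 0.131) or 3 (0.0633), without shScramble +DHT replicate 2 (0.0800) or 3 (0.0936), with library size as the only scaling (0.0660) or with the second deposited column of each library alone (0.0532). MCM3, MCM4, MCM5 and MCM6 had log2 fold changes of 0.53 to 0.57 in shScramble and 0.76 to 0.88 in shTMEFF2. MCM7 had the smallest response of the licensing genes. It was at 141, 170.3 and 159 CPM in shScramble −DHT, 177, 194 and 186 in shScramble +DHT, 168, 169 and 196 in shTMEFF2 −DHT, and 210.0, 261 and 239 in shTMEFF2 +DHT. Its log2 fold change was 0.24 ± 0.09 in shScramble (adjusted p = 0.071, edgeR) and 0.42 ± 0.09 in shTMEFF2 (adjusted p = 0.0123, edgeR). Blocking on the replicate number, it passed in shScramble too (0.25, adjusted p = 0.0196). Without shTMEFF2 −DHT replicate 1 or 2 it did not pass in shTMEFF2 (adjusted p = 0.0530 and 0.0552). The MIR93 precursor lies within MCM7 on the same strand. Per kilobase of the canonical transcript MCM7 had the highest level of the ring, 63.6 CPM per kb in shScramble −DHT and 95.9 in shTMEFF2 +DHT, and MCM5 the lowest, 14.8 and 29.2.

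GMNN encodes geminin, the inhibitor of CDT1, which is made in S and G2 phase. It was at 48.7, 64.5 and 50.8 CPM in shScramble −DHT, 58.8, 76.3 and 68.0 in shScramble +DHT, 41.9, 38.1 and 44.3 in shTMEFF2 −DHT, and 60.8, 66.4 and 72.3 in shTMEFF2 +DHT. Without DHT the 3 shTMEFF2 libraries all lay below the 3 shScramble libraries, while with DHT the lines overlapped. GMNN rose with DHT in shTMEFF2 (log2 fold change 0.68 ± 0.12, adjusted p = 0.00377, edgeR), and the smaller difference in shScramble did not pass (log2 fold change 0.31 ± 0.12, adjusted p = 0.0763, edgeR), though it did with the replicate number as a block (0.31, adjusted p = 0.0473), without shScramble −DHT replicate 2 (adjusted p = 0.0163) and without shScramble +DHT replicate 1 (adjusted p = 0.0388). ORC1 and ORC6, the origin recognition subunits whose genes follow the cell cycle, had log2 fold changes of 0.70 and 0.57 in shScramble and 0.84 and 0.92 in shTMEFF2.

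All 6 genes of helicase activation rose in both lines by the adjusted p, and 4 were called in shScramble and 6 in shTMEFF2. CDC45 (chr22:19479457-19520612, plus strand) was at 18.4, 22.7 and 25.2 CPM in shScramble −DHT, 31.9, 41.1 and 40.1 in shScramble +DHT, 22.7, 17.5 and 30.4 in shTMEFF2 −DHT, and 48.1, 53.4 and 55.2 in shTMEFF2 +DHT. The 2 lines overlapped without DHT, and the shTMEFF2 +DHT libraries stood above all others. The rise was 1.71-fold in shScramble (log2 fold change 0.77 ± 0.18, adjusted p = 0.00599, edgeR) and 2.22-fold in shTMEFF2 (log2 fold change 1.15 ± 0.18, adjusted p = 0.0017, edgeR). GINS4, a subunit of the GINS complex, had the smallest response of the group in shTMEFF2. It was at 20.6, 19.3 and 23.4 CPM in shScramble −DHT, 27.0, 36.5 and 32.0 in shScramble +DHT, 19.2, 24.1 and 25.2 in shTMEFF2 −DHT, and 37.1, 41.9 and 33.3 in shTMEFF2 +DHT. Its log2 fold change was 0.59 ± 0.14 in shScramble (adjusted p = 0.0067, edgeR) and 0.71 ± 0.14 in shTMEFF2 (adjusted p = 0.00543, edgeR). With the replicate number as a block the shScramble value (0.58) was just under the 1.5-fold limit, and with the second deposited column alone GINS4 did not pass in shTMEFF2 (0.57, adjusted p = 0.118). MCM10, which brings the polymerase alpha complex to the helicase, and GINS2 were called in both lines, at 0.72 and 0.74 in shScramble and 1.05 and 0.94 in shTMEFF2.

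**Figure D3:**
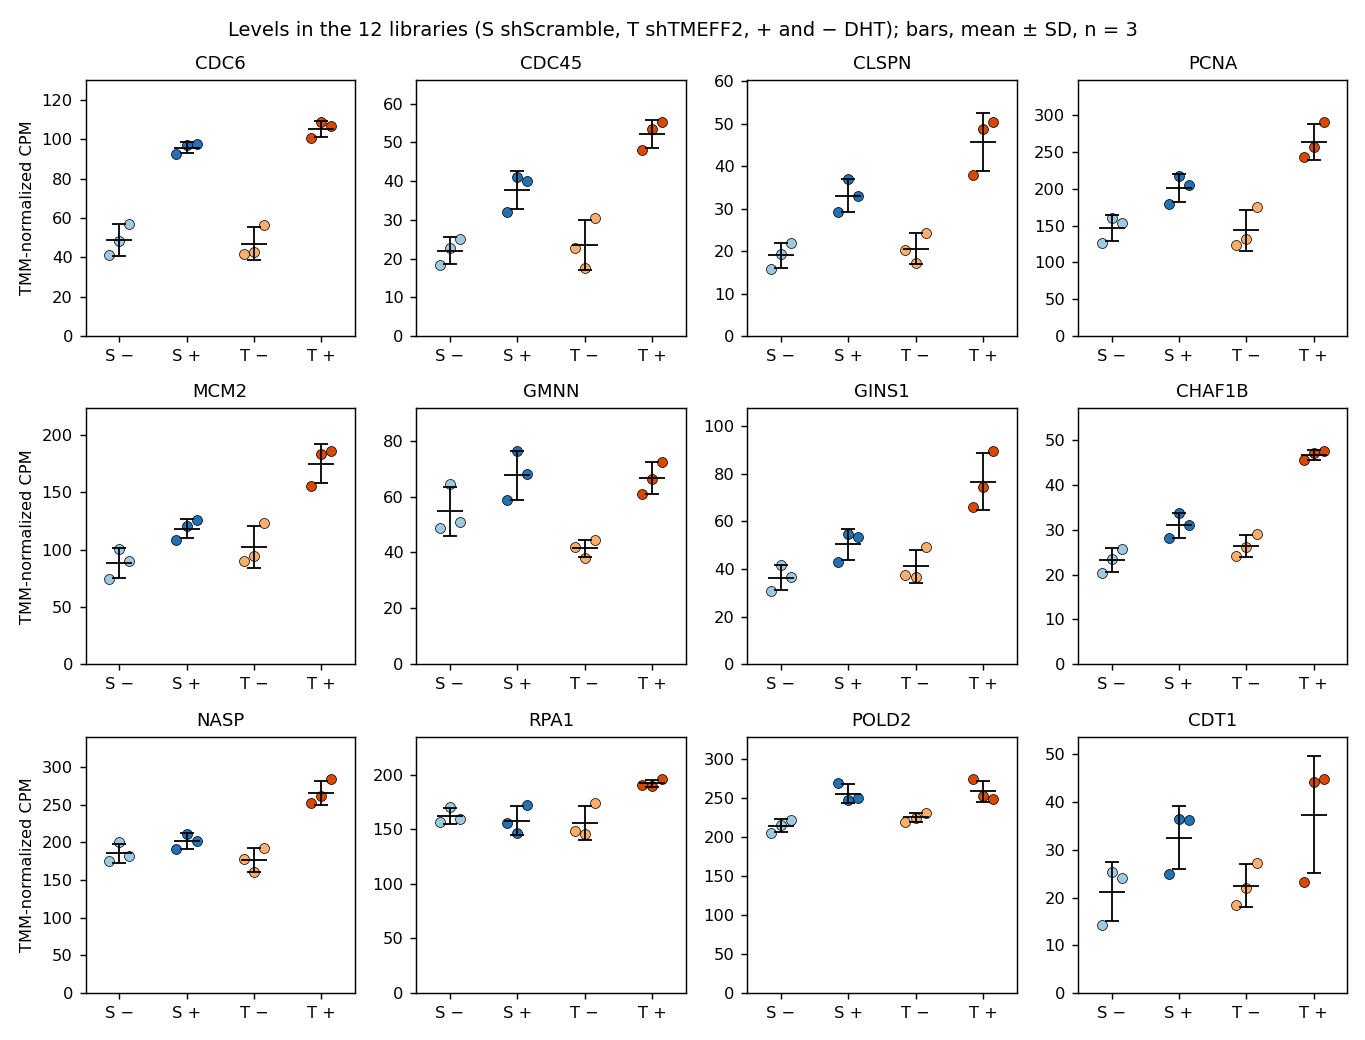
TMM-normalized CPM of 12 genes in the 12 libraries. Points are libraries, horizontal bars the group means and whiskers the SD (n = 3). In the 3 shTMEFF2 +DHT libraries CHAF1B lies at 45.4 to 47.5 CPM and the other 9 libraries at or under 33.6 CPM; for CDT1 the groups overlap.

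Among the 9 polymerase and primase genes 5 rose in shScramble and 8 in shTMEFF2 by the adjusted p, and in shTMEFF2 the log2 fold changes ran from 0.17 for POLE to 1.04 for PRIM1. PRIM1, the catalytic subunit of primase, was at 15.6, 19.1 and 19.9 CPM in shScramble −DHT, 24.3, 29.1 and 27.9 in shScramble +DHT, 16.4, 14.9 and 19.7 in shTMEFF2 −DHT, and 32.6, 32.5 and 40.0 in shTMEFF2 +DHT. Its log2 fold change was 0.58 ± 0.13 in shScramble (adjusted p = 0.00662, edgeR) and 1.04 ± 0.13 in shTMEFF2 (adjusted p = 0.000772, edgeR). PRIM1 shares exonic sequence with NACA on the same strand, so reads could be split between them. POLE, the catalytic subunit of the leading-strand polymerase epsilon, was at 62.6, 48.1 and 54.6 CPM in shScramble −DHT, 59.4, 64.6 and 56.3 in shScramble +DHT, 61.0, 77.9 and 64.6 in shTMEFF2 −DHT, and 68.5, 87.6 and 73.0 in shTMEFF2 +DHT. The groups overlapped, and its log2 fold change was 0.12 ± 0.12 in shScramble (adjusted p = 0.493, edgeR) and 0.17 ± 0.12 in shTMEFF2 (adjusted p = 0.409, edgeR). POLE2, the second subunit of the same enzyme, rose by 0.72 and 0.85 on the log2 scale. The delta polymerase subunits also differed from one another. POLD1, the catalytic subunit, rose by 0.43 and 0.67, whereas POLD2, an accessory subunit with the highest level per kilobase of the 49 genes in shScramble −DHT (133 CPM per kb), rose by 0.25 ± 0.06 and 0.20 ± 0.06. In shTMEFF2 POLD2 passed the adjusted p under only 10 of 21 alternatives.

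POLA1, the catalytic subunit of the primer-making polymerase alpha (chrX:24693873-24996986, plus strand), was at 28.3, 28.3 and 31.1 CPM in shScramble −DHT, 35.2, 36.1 and 33.6 in shScramble +DHT, 27.1, 26.4 and 33.9 in shTMEFF2 −DHT, and 48.8, 45.2 and 53.8 in shTMEFF2 +DHT. In shScramble the +DHT libraries lay just above the −DHT libraries, and those of shTMEFF2 +DHT stood well apart from the other 9. In shTMEFF2 the change was 1.69-fold (log2 fold change 0.76 ± 0.10, adjusted p = 0.000891, edgeR). In shScramble the difference did not pass (log2 fold change 0.26 ± 0.10, adjusted p = 0.0757, edgeR), and when the replicate number was a block it did (0.26, adjusted p = 0.0393). POLA2 and POLD3 rose in shTMEFF2 (0.87 and 0.58), and in shScramble their values were 0.43 and 0.15 with no pass. With the replicate number as a block POLA2 passed in shScramble (0.46, adjusted p = 0.0413) and POLD3, just under the 1.5-fold limit in shTMEFF2, was called there (0.59, adjusted p = 0.0174). PRIM2, the large primase subunit, rose in both lines by similar amounts, 0.65 and 0.73.

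The clamp and its loaders rose almost without exception, with 8 of 9 past the adjusted p in either line, none called in shScramble and 7 called in shTMEFF2. PCNA, the clamp itself (chr20:5114953-5126626, minus strand), was at 127, 159.9 and 153 CPM in shScramble −DHT, 179.9, 217 and 206 in shScramble +DHT, 124, 132 and 175 in shTMEFF2 −DHT, and 244, 257 and 290.2 in shTMEFF2 +DHT. Its 3 shTMEFF2 +DHT libraries were the highest of the 12. The log2 fold change was 0.45 ± 0.13 in shScramble (adjusted p = 0.0212, edgeR) and 0.87 ± 0.13 in shTMEFF2 (adjusted p = 0.00155, edgeR). In shScramble the adjusted p rose to 0.0900 without shScramble −DHT replicate 1, to 0.0755 without shScramble +DHT replicate 2 and to 0.0543 without shScramble +DHT replicate 3. DSCC1, part of an alternative loader that also serves sister chromatid cohesion, had the largest response of the group. It was at 12.3, 17.6 and 16.4 CPM in shScramble −DHT, 18.4, 24.6 and 21.9 in shScramble +DHT, 15.7, 12.8 and 17.7 in shTMEFF2 −DHT, and 30.6, 29.8 and 34.6 in shTMEFF2 +DHT. Its log2 fold change was 0.49 ± 0.16 in shScramble (adjusted p = 0.0349, edgeR) and 1.04 ± 0.16 in shTMEFF2 (adjusted p = 0.00155, edgeR).

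CHTF18, which binds DSCC1 in that loader, was at 47.3, 50.0 and 49.7 CPM in shScramble −DHT, 56.9, 48.0 and 58.3 in shScramble +DHT, 44.5, 49.3 and 59.1 in shTMEFF2 −DHT, and 62.6, 60.5 and 59.1 in shTMEFF2 +DHT. The shScramble groups overlapped, and its log2 fold change was 0.15 ± 0.10 in shScramble (adjusted p = 0.3, edgeR) and 0.25 ± 0.10 in shTMEFF2 (adjusted p = 0.122, edgeR). Without shTMEFF2 −DHT replicate 3 it passed in shTMEFF2 (0.38, adjusted p = 0.0196). CHTF18, CDT1 and POLE were the 3 members past the adjusted p in no comparison of the edgeR fit without a block. RFC1, the large subunit of the main loader, rose by 0.38 ± 0.06 and 0.42 ± 0.06 on the log2 scale, both under the 1.5-fold limit. The small subunits RFC2 to RFC5 rose by 0.40 to 0.53 in shScramble and by 0.72 to 0.86 in shTMEFF2. ATAD5, which unloads PCNA, rose by 0.39 ± 0.14 (at the adjusted p limit of 0.05 by edgeR) and 0.95 ± 0.14.

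Of the 5 genes of Okazaki fragment maturation and single-strand binding 3 rose in shScramble and 5 in shTMEFF2 by the adjusted p, with medians of 0.32 and 0.54 on the log2 scale, and FEN1 was the 1 called. FEN1, the flap nuclease that trims Okazaki fragments, was at 58.3, 81.2 and 75.2 CPM in shScramble −DHT, 108, 122 and 118 in shScramble +DHT, 58.3, 65.2 and 90.5 in shTMEFF2 −DHT, and 123, 144 and 156 in shTMEFF2 +DHT. It was called in both lines, at 0.70 ± 0.16 in shScramble (adjusted p = 0.00546, edgeR) and 0.98 ± 0.16 in shTMEFF2 (adjusted p = 0.00217, edgeR), and its exons overlap those of FADS2 on the same strand. LIG1, the ligase that joins the fragments, had values of 0.20 in shScramble, with no pass, and 0.53 in shTMEFF2. RPA1, the large subunit of RPA, was at 157, 171 and 159 CPM in shScramble −DHT, 156, 146 and 172 in shScramble +DHT, 148, 145 and 174 in shTMEFF2 −DHT, and 191, 189.8 and 196 in shTMEFF2 +DHT. In shScramble the groups overlapped (log2 fold change −0.04 ± 0.08, adjusted p = 0.767, edgeR), and RPA1 was the only member with a negative value there. In shTMEFF2 all 3 +DHT libraries were above the −DHT libraries (log2 fold change 0.30 ± 0.08, adjusted p = 0.0254, edgeR), and the adjusted p exceeded 0.05 without either of shTMEFF2 −DHT replicates 1 (0.0940) and 2 (0.105) or without shTMEFF2 +DHT replicate 3 (0.0759). With either of the 2 deposited columns of each library used alone it was 0.0592 and 0.0758. RPA2 and RPA3 rose by 0.35 and 0.32 in shScramble and by 0.54 and 0.57 in shTMEFF2.

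In fork protection, CLSPN (chr1:35720218-35769978, minus strand), which carries the checkpoint signal to CHK1, was at 15.9, 19.4 and 21.8 CPM in shScramble −DHT, 29.2, 36.9 and 32.9 in shScramble +DHT, 20.2, 17.1 and 24.3 in shTMEFF2 −DHT, and 37.9, 48.8 and 50.3 in shTMEFF2 +DHT. It was called in both lines, at 0.80 ± 0.16 in shScramble (adjusted p = 0.00242, edgeR) and 1.15 ± 0.16 in shTMEFF2 (adjusted p = 0.000942, edgeR). TIPIN, which pairs with TIMELESS at the fork, was at 21.8, 29.1 and 23.2 CPM in shScramble −DHT, 26.1, 28.3 and 27.1 in shScramble +DHT, 25.2, 24.5 and 27.2 in shTMEFF2 −DHT, and 35.0, 37.2 and 39.9 in shTMEFF2 +DHT. The shScramble groups overlapped (log2 fold change 0.14 ± 0.11, adjusted p = 0.365, edgeR), whereas in shTMEFF2 it rose (log2 fold change 0.54 ± 0.10, adjusted p = 0.00551, edgeR). TIMELESS rose by 0.28 and 0.55, and WDHD1, which links the helicase to polymerase alpha, by 0.62 and 1.00. CDC45 and CLSPN are among the genes that the study chose for their rise with DHT in shTMEFF2. Neither their rise nor their difference between the lines in these libraries is therefore independent evidence. The same may hold for others of the 49, WDHD1 and TCF19 among them. Apart from these libraries, the study measured its signature genes, CDC45 and CLSPN included, by qRT-PCR. It reported a significantly larger DHT induction in LNCaP cells with low TMEFF2 than in control cells. TCF19 was at 35.3, 40.5 and 40.7 CPM in shScramble −DHT, 54.9, 60.1 and 57.9 in shScramble +DHT, 32.4, 34.9 and 45.3 in shTMEFF2 −DHT, and 62.8, 76.4 and 78.1 in shTMEFF2 +DHT, and rose by 0.57 ± 0.12 in shScramble (adjusted p = 0.00396, edgeR) and 0.95 ± 0.12 in shTMEFF2 (adjusted p = 0.000772, edgeR).

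The histone chaperones place nucleosomes behind the fork. ASF1B, which hands histones H3 and H4 to the CAF-1 complex, was at 20.1, 26.8 and 23.5 CPM in shScramble −DHT, 29.3, 39.0 and 37.9 in shScramble +DHT, 20.2, 21.7 and 31.0 in shTMEFF2 −DHT, and 43.0, 47.4 and 55.9 in shTMEFF2 +DHT. It was called in both lines, at 0.59 ± 0.17 in shScramble (adjusted p = 0.0217, edgeR) and 1.01 ± 0.17 in shTMEFF2 (adjusted p = 0.00301, edgeR). CHAF1A and CHAF1B, subunits of CAF-1, rose by 0.49 and 0.42 in shScramble and by 0.66 and 0.82 in shTMEFF2. NASP, a carrier of free H3 and H4, was at 176, 199.8 and 182 CPM in shScramble −DHT, 191, 212 and 202 in shScramble +DHT, 178, 160.0 and 192 in shTMEFF2 −DHT, and 253, 262 and 284 in shTMEFF2 +DHT. The shScramble groups overlapped (log2 fold change 0.12 ± 0.08, adjusted p = 0.288, edgeR), while in shTMEFF2 every +DHT library lay above every other library of the 12 (log2 fold change 0.59 ± 0.08, adjusted p = 0.000899, edgeR).

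**Figure D4:**
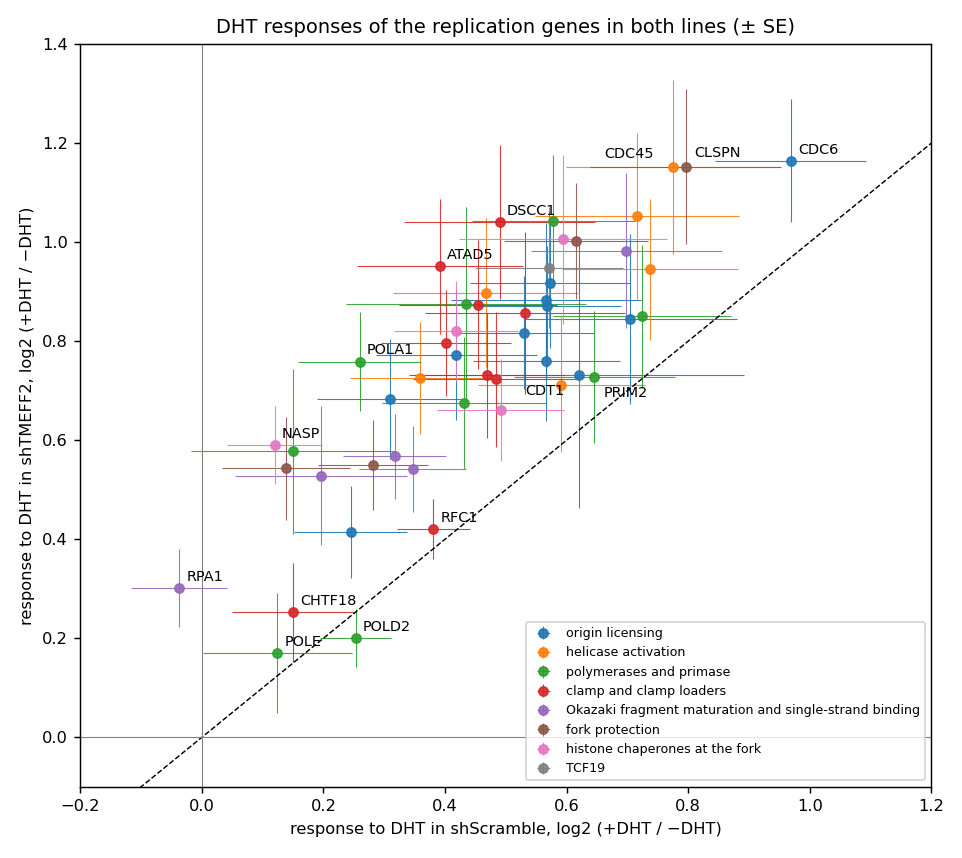
Response to DHT (log2 of +DHT over −DHT) of each of the 49 genes in shScramble (x axis) and in shTMEFF2 (y axis), with standard errors from edgeR and colors by role; the dashed line marks equal responses. Of the 49 genes 48 lie above the line, and POLD2 lies just under it.

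The responses in the 2 lines were then compared gene by gene, as the difference of the 2 log2 fold changes. It was positive for 48 of the 49 genes, with POLD2 (−0.05 ± 0.08) the exception, and its median was 0.33, where that of all tested genes was 0.01. The 49 genes are measured in the same 12 libraries, so their signs are not independent of each other. Only NASP (chr1:45583846-45618904, plus strand) passed the adjusted p (log2 fold change 0.47 ± 0.11, adjusted p = 0.0292, edgeR), which is 2.04% of the 49 genes and close to the background of 1.65%. In either direction 4.94% of all genes passed. At an unadjusted p under 0.05 there were 14 members, against 17.5% of all genes. POLA1 (log2 fold change 0.50 ± 0.14, adjusted p = 0.0673, edgeR) and RPA1 (log2 fold change 0.34 ± 0.11, adjusted p = 0.115, edgeR) came next by p, and ATAD5 had the largest difference (log2 fold change 0.56 ± 0.19, adjusted p = 0.134, edgeR).

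The count of members with a larger response in shTMEFF2 moved with the test. With the replicate number as a block it was 3 (NASP, POLA1 and CHAF1B), against 2.8% of all genes in that fit, and with DESeq2 it was 3 (NASP, POLA1 and RPA1), against 3.11%. Without shTMEFF2 −DHT replicate 3, the library with the highest level of its group for 46 genes, it was 6 (NASP, PCNA, POLA1, POLD3, RPA1 and TCF19), against 1.87% of all genes. Without any 1 of shScramble −DHT replicate 2, shScramble +DHT replicates 1 and 3, shTMEFF2 −DHT replicates 1 and 2 and shTMEFF2 +DHT replicate 3 it was 0, with NASP then at an adjusted p of 0.0549 to 0.0769 by edgeR. PCNA (log2 fold change 0.42 ± 0.18, adjusted p = 0.254, edgeR), MCM2 (log2 fold change 0.35 ± 0.19, adjusted p = 0.363, edgeR) and GMNN (log2 fold change 0.37 ± 0.17, adjusted p = 0.279, edgeR) did not pass.

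Between the lines without DHT no member passed the adjusted p by edgeR, where 1.12% of all genes did in either direction. At an unadjusted p under 0.05 there were 3 members, against 13.5% of all genes. DESeq2 had 1, GMNN, lower in shTMEFF2 (log2 fold change −0.40, adjusted p = 0.0482), where 3.5% of all genes passed by DESeq2. The median difference was 0.06, and it fell to −0.05 without shTMEFF2 −DHT replicate 3. Values ran from −0.40 ± 0.12 for GMNN to 0.30 ± 0.12 for POLE.

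With DHT, 39 of the 49 genes were higher in each shTMEFF2 library than in each shScramble library, against 15.5% of all genes. GINS1 and CHAF1B were called (4.08% of the members), against 3.03% of all genes. By the adjusted p alone 19 were higher (38.8%), against 6.93%. More members passed with the replicate number as a block, a count given at the end. The median log2 difference was 0.38. GINS1 (chr20:25391008-25452700, plus strand), a GINS subunit, was at 31.0, 41.6 and 36.8 CPM in shScramble −DHT, 42.8, 54.6 and 53.5 in shScramble +DHT, 37.5, 36.7 and 49.1 in shTMEFF2 −DHT, and 66.0, 74.3 and 89.5 in shTMEFF2 +DHT. The shTMEFF2 +DHT libraries were all above the shScramble +DHT libraries, at 76.6 ± 11.9 CPM against 50.3 ± 6.48 CPM (SD, n = 3), and the difference was 1.52-fold (log2 fold change 0.61 ± 0.15, adjusted p = 0.0151, edgeR). The adjusted p was 0.0649 without shScramble +DHT replicate 1 and 0.0558 without shTMEFF2 +DHT replicate 3.

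CHAF1B (chr21:36385392-36419015, plus strand) was at 20.4, 23.4 and 25.7 CPM in shScramble −DHT, 28.1, 33.6 and 31.1 in shScramble +DHT, 24.1, 26.2 and 29.0 in shTMEFF2 −DHT, and 45.4, 47.1 and 47.5 in shTMEFF2 +DHT. The 3 shTMEFF2 +DHT libraries lay close together, at 46.7 ± 1.1 CPM (SD, n = 3), and far above the 30.9 ± 2.79 CPM of shScramble +DHT. The difference was 1.51-fold (log2 fold change 0.59 ± 0.10, adjusted p = 0.00148, edgeR), and it passed the adjusted p under each alternative run. CHAF1B shares exonic sequence with MORC3 on the same strand. MCM2 (log2 fold change 0.56 ± 0.13, adjusted p = 0.0112, edgeR) passed the test at just under 1.5-fold. PCNA (log2 fold change 0.39 ± 0.13, adjusted p = 0.0585, edgeR) did not pass, and did so under 8 of 21 alternatives. The replicate block was 1 of these (0.39, adjusted p = 0.00882, edgeR). GMNN was level between the lines (log2 fold change −0.03 ± 0.12, adjusted p = 0.924, edgeR). The 2 called genes became 0 without shScramble +DHT replicate 1, 1 without shTMEFF2 +DHT replicate 3, 3 without shScramble +DHT replicate 3, and 4 without shScramble +DHT replicate 2 or either of shTMEFF2 +DHT replicates 1 and 2.

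**Figure D5:**
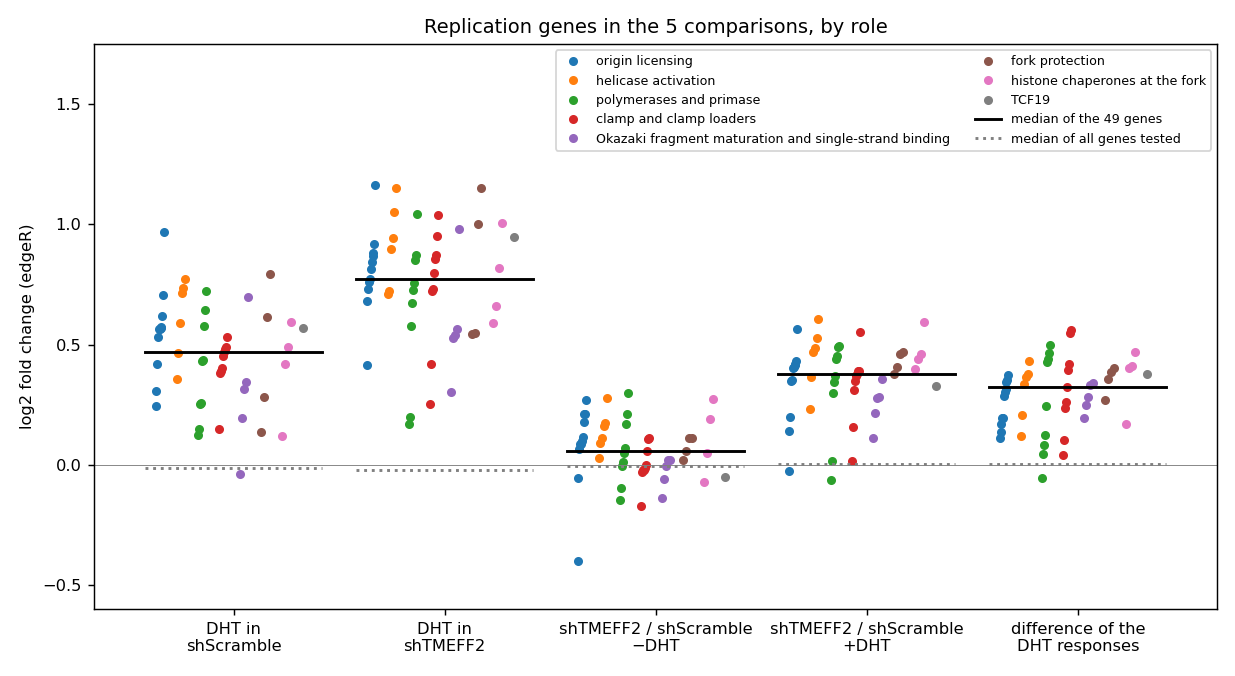
Log2 fold changes (edgeR) of the 49 genes in the 5 comparisons, 1 point per gene and 1 column of points per role. Black lines are the medians of the 49 genes (0.47, 0.77, 0.06, 0.38 and 0.33 from left to right) and dotted lines those of all 15419 genes tested.

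Genes around the replication machinery were read from fixed lists for comparison. Of 41 other replication genes, such as the origin recognition subunits that do not follow the cycle and the checkpoint clamp, 13 rose and 2 fell with DHT in shScramble and 24 rose in shTMEFF2 by the adjusted p, with median log2 fold changes of 0.21 and 0.38. Of 16 genes of deoxynucleotide supply 5 rose and 2 fell in shScramble and 10 rose in shTMEFF2, with medians of 0.22 and 0.47. Of 35 kinetochore and spindle checkpoint genes, which act in mitosis, 10 rose and 1 fell in shScramble and 29 rose in shTMEFF2, with medians of 0.27 and 0.83. For the replication origin and fork genes the same counts were 37 and 46 of 49 and the medians 0.47 and 0.77. In shScramble the median of the kinetochore genes was thus the lower of the 2, and in shTMEFF2 the 2 were close, a comparison of medians with no test. The median difference of responses was 0.50 for the kinetochore genes, 0.31 for deoxynucleotide supply and 0.17 for the other replication genes, beside 0.33 for the 49 genes. These lists too hold genes that the study chose for their rise with DHT in shTMEFF2, such as BUB1B, CENPI and RRM2.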

How the data were processed

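RNA of 12 LNCaP libraries was sequenced as paired ends. Per the labels and the study's methods, the authors checked reads with FastQC, trimmed them with Trimmomatic, quantified transcripts with kallisto 0.42.3 on GRCh38 and summed them by gene with tximport. The deposited values are estimated counts scaled for transcript length and library size, in 24 columns, 2 per library, and 0 columns were left unassigned. What separates the 2 columns of a library is not given in the sources used here. The 2 were summed and rounded, giving 19450866 to 22612046 per library (median 21194622). Whether counting used strand is not given either, and 26 of the 49 genes overlap an exon of another gene on either strand, 8 of them on the same strand.

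All 12 libraries were fitted together in edgeR 4.0.16 (R 4.3.3) with TMM normalization, filterByExpr (minimum count 10, minimum total 15), 1 mean per group and the quasi-likelihood test, and p-values were adjusted by the Benjamini-Hochberg method over 15419 genes. The study filtered on mean CPM and tested with DESeq2, which was run here as an alternative (1.42.0). The scripts were tested on simulated data. The standard error was the log2 fold change divided by the root of F, and the interaction was the DHT response in shTMEFF2 minus that in shScramble. The other alternatives were another scaling, another filter or none, only the libraries compared, each library left out, a block for the replicate number, each deposited column alone and the adjusted p alone.

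Within either line, same-numbered libraries deviated together from their group means (correlations over genes of 0.168, 0.126 and 0.178 in shScramble and 0.249, 0.123 and 0.233 in shTMEFF2), so the blocked value is given where it changed a call. Between the lines the same-number correlations ran from −6e-04 to 0.139. They were above 0.1 in replicates 1 and 3 and lower in most pairs of replicate 2. Some libraries of a group can share a transduction, and p-values measure the spread between libraries.

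The 49 genes, the roles and the other gene lists were chosen with earlier results of these data known. Genes given library by library were, in each comparison, the 3 called with the largest rise and the 3 with the largest fall (fewer if fewer were called), those passing in the interaction, the largest and the smallest response of each role in shTMEFF2, and PCNA, MCM2 and GMNN. CDT1 and POLA1 were added after their values were seen. CDC45 and CLSPN are also in the study's set of genes raised by DHT in shTMEFF2, as are BUB1B, CENPI and RRM2 of the other lists. TCF19 and WDHD1 may be in it too. Promoter windows are from RefSeq on GRCh38.p14 and gene positions from GENCODE v44, and 8 of the 49 genes have no window in the table used.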

Additional observations from a re-analysis of the deposited data

Results flagged for a closer look

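Among the 141 genes of the 4 lists read here, the DHT response of 8 (5.67%) differed between the lines by the edgeR test of the difference itself (adjusted p over all genes at most 0.05), where 4.94% of all tested genes did. Each value is the log2 response in shTMEFF2 minus that in shScramble. NASP was the one of these among the 49 replication origin and fork genes, at 0.47. Of the kinetochore and spindle checkpoint genes, CENPI differed by 0.87 (responses of 0.41 in shScramble and 1.28 in shTMEFF2) and BUB1B by 0.83 (0.22 and 1.04). Both are among the genes that the study chose for their rise with DHT in shTMEFF2. Neither their differences nor their part in the 5.67% is independent evidence. Separately, the study reported by qRT-PCR a larger DHT induction of its signature genes, these included, with low TMEFF2. CENPN, which binds the centromeric nucleosome, differed by −1.25, with 69.5 ± 8.75 CPM in shScramble −DHT, 314 ± 9.17 in shScramble +DHT, 55.4 ± 9.51 in shTMEFF2 −DHT and 105 ± 12.6 in shTMEFF2 +DHT (SD, n = 3). Of the other replication genes, ORC5, an origin recognition subunit, differed by −0.53 (responses of 1.18 and 0.65), POLD4, a small subunit of polymerase delta, by −0.45 (0.25 and −0.19), and DBF4B, an activator of the CDC7 kinase, by 0.70 (−0.35 and 0.35). SAMHD1, which degrades deoxynucleotides, differed by 0.36 (−0.55 and −0.19). ORC5, POLD4 and CENPN thus had the larger response in shScramble, where 48 of the 49 origin and fork genes had the smaller one.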

How the results depend on the processing

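No value changed sign while passing a test, and of the counts of called genes that were above 0, 63 stayed within 1.5 times the reported count over the alternatives and 23 did not. Of single-gene values 712 kept their side of the threshold, 26 lost it and 14 gained it. By the adjusted p alone 37 genes rose in shScramble and 19 were higher in shTMEFF2 +DHT, and with library size as the only scaling the last comparison called 5. Of the difference in DHT responses, DESeq2 gave 3 genes, library size alone 2, the mean filter of 5 CPM 2, the replicate block 3 and the second column of each library alone 0. For NASP the adjusted p of that difference ran from 0.00177 to 0.0769 over 20 alternatives and passed in 13. Leaving out 1 library at a time, the calls ranged from 6 to 21 in shScramble, 34 to 42 in shTMEFF2, 0 to 0 between lines without DHT, 0 to 4 with DHT and 0 to 6 for the difference in responses. The medians ranged from 0.36 to 0.53, 0.72 to 0.90, −0.05 to 0.12, 0.33 to 0.44 and 0.24 to 0.45. With the replicate number as a block the calls were 12, 38, 0, 2 and 3. Between the lines with DHT the same-number correlations were 0.133, −6e-04 and 0.137 in replicates 1, 2 and 3. The block there moved the genes past the adjusted p from 19 to 34. It changed no call beyond those given with the genes. Common biological variation between libraries was 0.131 (coefficient of variation), with 3 libraries a group from 2 transductions. The cause of these shifts was not tested.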
